A study of Mus musculus with 9 samples.

Results

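The endothelial marker genes described here are Cdh5, Pecam1, Kdr, Flt1, Tek, Tie1, Eng, Emcn and Vwf, 9 of the 19938 genes with a probe set of 1 symbol. They were chosen by name as markers of the cells that line blood vessels, with earlier results of these data known. The same holds for the gene lists below, so counts set beside the share of all genes are descriptive. Each of the 9 had exactly 1 probe set, so no choice between probe sets was needed. RNA of 3 groups of mouse cells, all labelled C57BL/6, was compared on 9 Affymetrix Mouse Gene ST arrays, 3 for each group. The groups were dedifferentiated cardiac fibroblasts, made by a method that the series title calls protein-based, embryonic stem (ES) cells labelled C57, and adult cardiac fibroblasts. The agents used for the dedifferentiation, any further detail of age and the origin of the ES line are not given in the sources used here. Nothing says that the arrays of a group stand for different mice or dishes, so p-values reflect the scatter of these arrays alone, which could be technical, and 3 arrays a group limit the precision. No group is labelled endothelial, so the 9 genes were read in cells of other labelled types.

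Endothelial cells form the inner lining of vessels and of the heart. Vascular endothelial growth factor (VEGF) reaches them through the receptors encoded by Kdr and Flt1, and angiopoietins act through the receptor encoded by Tek, with Tie1 as its relative and partner. Cdh5 and Pecam1 encode proteins of the contacts between endothelial cells, Eng a co-receptor for ligands of the TGF-beta and BMP family, Emcn a surface sialomucin and Vwf a blood glycoprotein that tethers platelets. Several of these genes are also used outside the endothelium. Pecam1 is present on mouse ES cells, platelets and leukocytes, Eng on mesenchymal cells, and Kdr on early mesoderm.

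All values are log2 expression values with no detection call, so a low value cannot be read as absence, and levels of different genes are not set against each other. Array medians lay between 4.647 and 4.859 over the 35557 probe sets. Of the 9 genes, 4 (Pecam1, Flt1, Tek and Eng) had a mean above 5.39, the median of all genes, and the same 4 reached a group mean of 6. The 12 fibroblast marker genes averaged 6.12 to 6.21 in dedifferentiated cells, 5.81 to 5.87 in ES cells and 10.57 to 10.66 in fibroblasts. The 12 pluripotency markers averaged 9.82 to 9.92 in dedifferentiated cells, 10 to 10.15 in ES cells and 4.54 to 4.9 in fibroblasts. Sex-linked transcripts also separated the groups. Xist averaged 3.25 ± 0.21 in dedifferentiated cells, 3.15 ± 0.32 in ES cells and 7.31 ± 0.074 in fibroblasts, and the Y-linked gene Eif2s3y averaged 8.09 ± 0.12, 7.76 ± 0.25 and 3.55 ± 0.12 in the same order (SD, n = 3 each). The fibroblast arrays therefore differ from both other groups in sex-linked transcripts too. Each comparison with fibroblasts carries this difference, so it cannot be told apart from the cell label, and its part below was not tested. For both transcripts the dedifferentiated arrays overlapped the ES arrays and lay apart from the fibroblast arrays, with Xist lower and Eif2s3y higher than in fibroblasts. The dedifferentiated cells are not shown to derive from the fibroblasts on these arrays, and their origin was not tested. Rose and fell below name differences between groups, not a change followed in the same cells.

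The 9 genes did not move as a block. Between dedifferentiated cells and fibroblasts, 4 were higher (Pecam1, Flt1, Cdh5 and Tek), 2 were lower (Eng and Emcn) and 3 were not called (Kdr, Vwf and Tie1). A call required a limma adjusted p under 0.05 over all genes and a difference of at least 1 log2 unit. Of all genes, 8.79% were called higher and 10.1% lower in this comparison. Between ES cells and fibroblasts, only Pecam1 of the 9 was higher, and Eng and Emcn were lower, against 8.85% of all genes higher and 10.4% lower. Between dedifferentiated and ES cells, Cdh5 alone of the 9 was called, as higher, where 1.01% of all genes were higher and 0.547% lower. The median difference of the 9 genes was 0.49 for dedifferentiated cells minus fibroblasts, -0.031 for ES cells minus fibroblasts and 0.14 for dedifferentiated minus ES cells. Over all genes these medians were 0.0063, 0.016 and -0.0015. Both comparisons with fibroblasts share the same 3 fibroblast arrays. At an unadjusted limma p under 0.05, 0 of the 9 were lower in dedifferentiated than in ES cells and 4 were higher, against 14.7% and 15.8% of all genes.

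Arrays of dedifferentiated cells lay wholly above the fibroblast arrays for 6 of the 9 genes and wholly below for 2, against 28.9% and 25.8% of all genes (54.7% in either direction). Arrays of ES cells lay above the fibroblast arrays for 3 and below for 4, against 27.6% and 24.4% (51.9% in either direction). The share of genes with no overlap was thus high throughout the table. In bulk RNA, fewer cells of a type and less RNA per cell cannot be told apart.

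**Figure D1:**
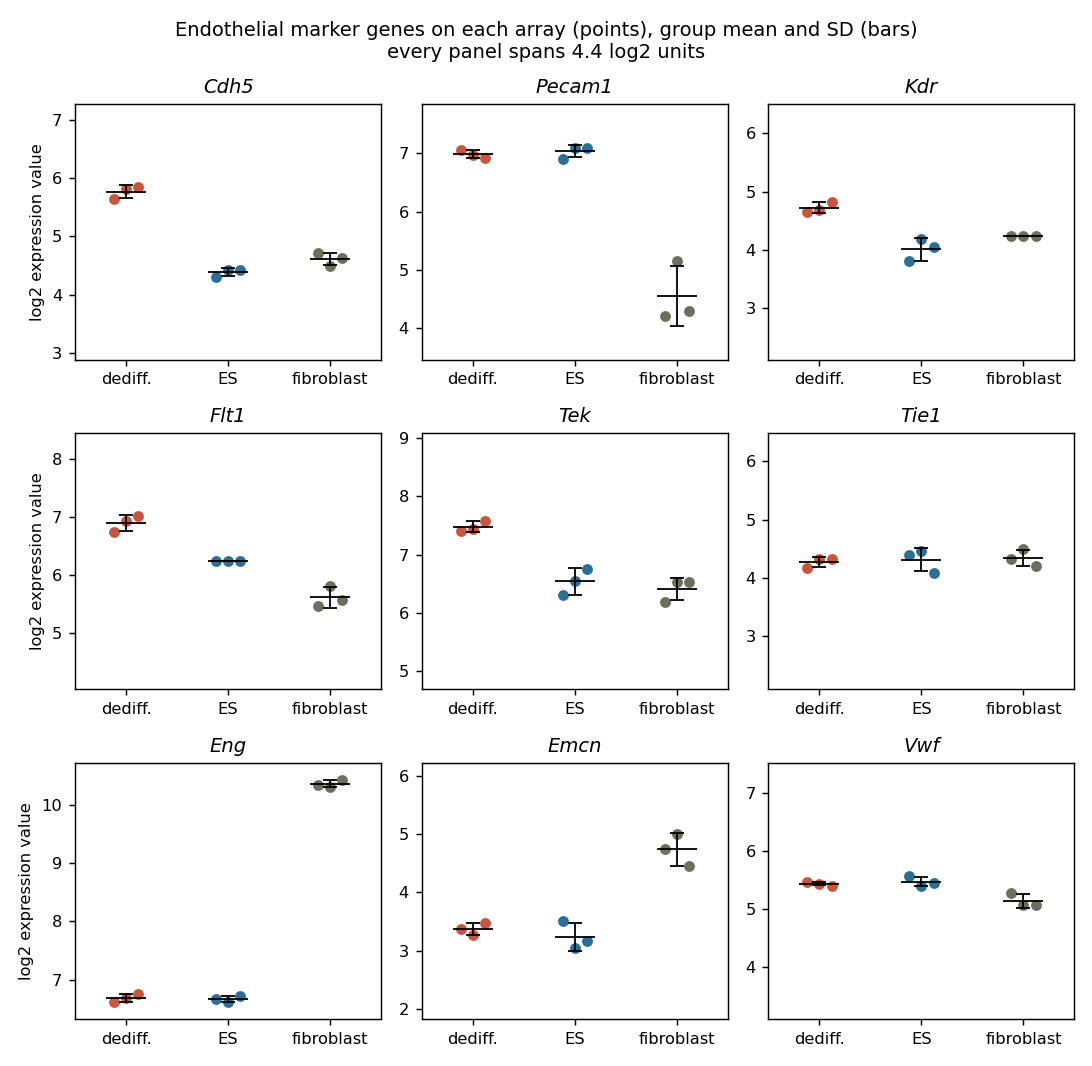
Log2 expression value of each of the 9 genes (y axis, every panel spanning 4.4 log2 units) on the 3 arrays of the dedifferentiated, ES and fibroblast groups, with points for arrays and bars for the group mean and SD. Eng and Emcn are higher in fibroblasts than in the other groups, although Emcn is dim throughout. Pecam1 is higher in dedifferentiated and ES cells than in fibroblasts, and Cdh5, Kdr, Flt1 and Tek are highest in dedifferentiated cells.

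Eng, whose protein endoglin (CD105) presents BMP and TGF-beta ligands to their receptors, differed most among the 9 genes. Its log2 value was 6.62, 6.69 and 6.76 on the dedifferentiated arrays, 6.66, 6.62 and 6.72 on the ES arrays, and 10.35, 10.31 and 10.43 on the fibroblast arrays. All 3 fibroblast arrays lay far above the other 6, and the dedifferentiated and ES arrays overlapped. Eng fell in dedifferentiated cells, with a difference from fibroblasts of -3.68 log2 units (95% interval -3.84 to -3.51, 12.8-fold lower, limma adjusted p = 7.2e-12). In ES cells the difference from fibroblasts was -3.7 (-3.86 to -3.54, 13-fold lower, limma adjusted p = 6e-12). The dedifferentiated cells differed from ES cells by 0.022 (-0.14 to 0.18).

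Emcn, which encodes the endothelial sialomucin endomucin, had its higher level in fibroblasts too. The values were 3.37, 3.27 and 3.48 in dedifferentiated cells, 3.5, 3.04 and 3.16 in ES cells, and 4.75, 5.01 and 4.45 in fibroblasts. Every fibroblast array was above every other array. Emcn fell by 1.36 log2 units in dedifferentiated cells (95% interval -1.69 to -1.04, limma adjusted p = 9.3e-06) and fell by 1.51 in ES cells (-1.83 to -1.18, limma adjusted p = 3.9e-06), both against fibroblasts. Dedifferentiated and ES cells differed by 0.14 (-0.19 to 0.47), and their arrays overlapped. Emcn was among the 5 genes below both filters on dim genes, so its call exists only where dim genes are kept.

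Pecam1, which encodes the adhesion protein CD31, showed the opposite order. It was at 7.06, 6.98 and 6.92 in dedifferentiated cells, 6.91, 7.1 and 7.1 in ES cells, and 4.21, 5.15 and 4.29 in fibroblasts. The dedifferentiated and ES arrays overlapped, and fibroblast replicate 2 lay above the other 2 fibroblast arrays but below all others. Pecam1 rose by 2.44 log2 units in dedifferentiated cells (95% interval 2 to 2.87, 5.41-fold, limma adjusted p = 7.8e-07) and by 2.48 in ES cells (2.05 to 2.92, 5.6-fold, limma adjusted p = 6.4e-07). The difference between dedifferentiated and ES cells was -0.049 (-0.49 to 0.39). Leaving out each array in turn kept the difference between dedifferentiated cells and fibroblasts at 2.27 to 2.73.

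Cdh5 encodes VE-cadherin, the cadherin of endothelial adherens junctions, and was the only one of the 9 genes called in dedifferentiated cells against both other groups. Its values were 5.64, 5.82 and 5.85 in dedifferentiated cells, 4.31, 4.43 and 4.42 in ES cells, and 4.72, 4.49 and 4.62 in fibroblasts. The 3 dedifferentiated arrays were above all other arrays. Cdh5 rose by 1.38 log2 units relative to ES cells (95% interval 1.19 to 1.58, 2.61-fold, limma adjusted p = 3.7e-06) and by 1.16 relative to fibroblasts (0.97 to 1.36, limma adjusted p = 4.2e-07). ES cells minus fibroblasts gave -0.22 (-0.41 to -0.025, limma adjusted p = 0.061), so the lower end of the order did not pass the test, although those arrays did not overlap. Cdh5 also lay below both filters on dim genes, with a highest group mean of 5.77.

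The VEGF receptor genes Flt1 and Kdr were highest in dedifferentiated cells. Flt1, whose product VEGFR1 binds VEGF tightly and in its soluble form acts as a trap, was at 6.75, 6.93 and 7.01 in dedifferentiated cells, 6.25 on each of the 3 ES arrays, and 5.47, 5.81 and 5.57 in fibroblasts. The 3 groups did not overlap. Flt1 rose by 1.28 log2 units in dedifferentiated cells over fibroblasts (95% interval 1.05 to 1.5, limma adjusted p = 6e-07). It differed by 0.63 between ES cells and fibroblasts (0.4 to 0.85, limma adjusted p = 0.00024) and by 0.65 between dedifferentiated and ES cells (0.43 to 0.87, limma adjusted p = 0.00092), both short of the required size.

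Kdr, which encodes VEGFR2, the main signalling receptor for VEGF, varied less. It was at 4.65, 4.68 and 4.82 in dedifferentiated cells, 3.8, 4.18 and 4.04 in ES cells, and 4.23 on each of the 3 fibroblast arrays. The dedifferentiated arrays again lay above all others. The difference of dedifferentiated from ES cells was 0.71 (95% interval 0.49 to 0.93, limma adjusted p = 5e-04) and from fibroblasts 0.49 (0.27 to 0.71, limma adjusted p = 0.0014). Neither reached 1 log2 unit. The equal values of Flt1 on the ES arrays and of Kdr on the fibroblast arrays are exact in the deposited table, where 1.13% of all rows were equal on the 3 ES arrays and 1.02% on the 3 fibroblast arrays. Their SD of 0 is therefore no measure of precision.

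Tek encodes the angiopoietin receptor Tie2. Its values were 7.41, 7.44 and 7.58 in dedifferentiated cells, 6.3, 6.54 and 6.76 in ES cells, and 6.19, 6.53 and 6.53 in fibroblasts. The dedifferentiated arrays were above the rest, and the ES and fibroblast arrays overlapped. Tek rose by 1.06 log2 units over fibroblasts (95% interval 0.78 to 1.34, limma adjusted p = 2.1e-05) and differed from ES cells by 0.94 (0.66 to 1.22, limma adjusted p = 4e-04). Both values lie close to the required size. The difference from fibroblasts was 0.95 without fibroblast replicate 1 and 0.94 after median centring, neither called, and the difference from ES cells was 1.05 without ES replicate 3 and was then called. Median centring moves every difference from fibroblasts by -0.12.

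Tie1, the partner receptor of Tie2, was the flattest of the 9 genes. It was at 4.17, 4.32 and 4.33 in dedifferentiated cells, 4.39, 4.46 and 4.08 in ES cells, and 4.32, 4.49 and 4.21 in fibroblasts, with all groups overlapping. The 3 differences were -0.066 (95% interval -0.31 to 0.18) for dedifferentiated cells and -0.031 (-0.28 to 0.21) for ES cells, each against fibroblasts, and -0.035 (-0.28 to 0.21) between dedifferentiated and ES cells. These intervals lie within 1 log2 unit of 0. Their signs turned under some alternatives.

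Vwf, the gene of von Willebrand factor, which endothelial cells and megakaryocytes store and release, also moved little. The values were 5.46, 5.43 and 5.4 in dedifferentiated cells, 5.56, 5.4 and 5.45 in ES cells, and 5.27, 5.07 and 5.06 in fibroblasts. The dedifferentiated and ES arrays overlapped and all lay above the fibroblast arrays. The difference from fibroblasts was 0.3 in dedifferentiated cells (95% interval 0.12 to 0.48, limma adjusted p = 0.0092) and 0.34 in ES cells (0.16 to 0.52, limma adjusted p = 0.004), both under the required size.

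**Figure D2:**
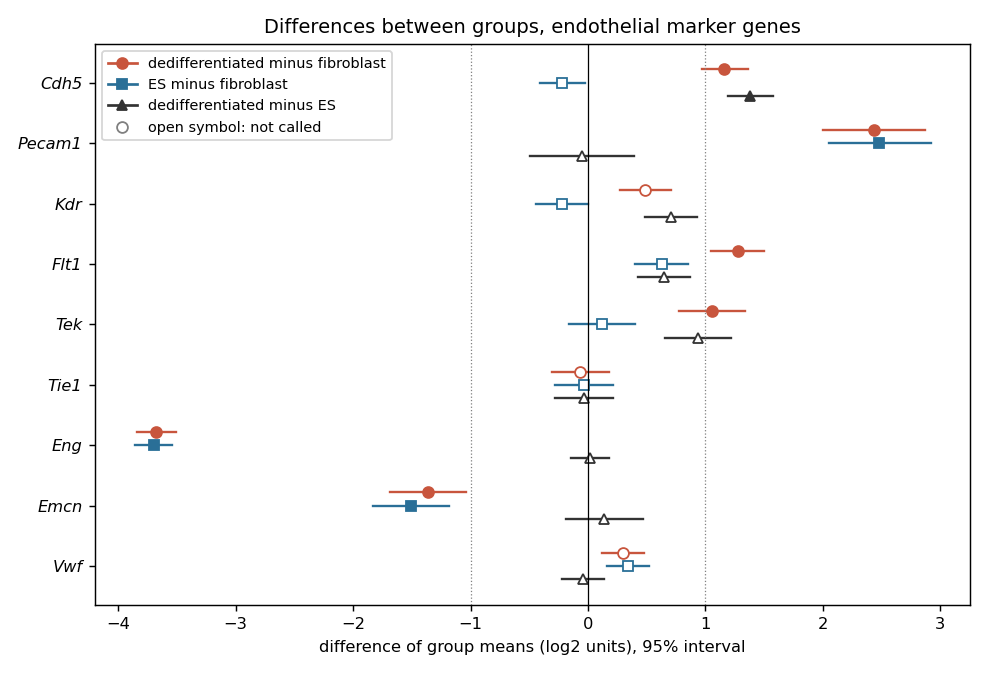
Difference of group means in log2 units (x axis) with its 95% interval for each of the 9 genes (y axis) in the 3 comparisons, with filled symbols for called differences and dotted lines at 1 log2 unit. The dedifferentiated and ES symbols coincide for Pecam1, Eng, Emcn, Tie1 and Vwf, and separate for Cdh5, Kdr, Flt1 and Tek.

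Dedifferentiated and ES cells were close for most of the 9 genes. For 7 of the 9 the 95% interval of the difference lay within 1 log2 unit of 0. That is a smaller share than the 96.2% of all genes. The exceptions were Cdh5, which was called, and Tek, with an interval reaching 1.22. Arrays of dedifferentiated and ES cells did not overlap for 4 of the 9 genes (Cdh5, Kdr, Flt1 and Tek), each time with the dedifferentiated arrays above. Over all genes, 16.9% had the dedifferentiated arrays above the ES arrays and 15.6% below (32.6% in either direction).

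The promoters of 5 genes are printed because Flt1, Kdr and Tek were all higher on the dedifferentiated arrays and Eng and Emcn were both higher on the fibroblast arrays. Many endothelial genes are bound by ETS factors, which recognise the core GGAA, so capitals mark GGAA and its complement TTCC. Each sequence holds the 250 bases before a RefSeq transcription start (assembly GRCm38.p6), in the direction of the gene.
Flt1 promoter, chr5:147726012-147726261, minus strand: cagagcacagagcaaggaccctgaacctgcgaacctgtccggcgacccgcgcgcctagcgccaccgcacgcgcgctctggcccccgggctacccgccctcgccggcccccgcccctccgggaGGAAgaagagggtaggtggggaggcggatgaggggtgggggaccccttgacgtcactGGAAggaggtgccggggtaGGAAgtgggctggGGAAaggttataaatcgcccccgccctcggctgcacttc
Kdr promoter, chr5:75978456-75978705, minus strand: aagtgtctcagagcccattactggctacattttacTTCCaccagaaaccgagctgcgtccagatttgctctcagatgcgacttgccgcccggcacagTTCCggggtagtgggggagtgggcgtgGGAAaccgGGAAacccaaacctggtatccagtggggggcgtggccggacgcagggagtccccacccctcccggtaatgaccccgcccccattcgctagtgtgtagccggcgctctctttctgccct
Tek promoter, chr4:94739039-94739288, plus strand: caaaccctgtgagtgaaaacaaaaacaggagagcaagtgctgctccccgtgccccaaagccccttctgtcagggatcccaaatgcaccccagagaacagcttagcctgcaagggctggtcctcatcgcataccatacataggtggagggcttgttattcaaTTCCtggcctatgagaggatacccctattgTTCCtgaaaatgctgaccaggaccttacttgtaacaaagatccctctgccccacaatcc
Eng promoter, chr2:32646345-32646594, plus strand: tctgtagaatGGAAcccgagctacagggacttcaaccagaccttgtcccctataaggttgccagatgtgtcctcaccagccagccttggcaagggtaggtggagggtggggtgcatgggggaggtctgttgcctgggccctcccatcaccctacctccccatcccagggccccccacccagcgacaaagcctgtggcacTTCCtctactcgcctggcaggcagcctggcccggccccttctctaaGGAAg
Emcn promoter, chr3:137340828-137341077, plus strand: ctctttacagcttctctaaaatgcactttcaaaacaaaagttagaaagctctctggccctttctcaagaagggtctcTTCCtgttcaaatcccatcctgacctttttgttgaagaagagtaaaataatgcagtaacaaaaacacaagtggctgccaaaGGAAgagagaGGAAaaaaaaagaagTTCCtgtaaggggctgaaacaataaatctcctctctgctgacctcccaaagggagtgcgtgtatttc
RefSeq promoters were matched for 6 of the 9 genes, these 5 and Tie1. On both strands together, the core GGAA occurred 4 times in the Flt1, Kdr and Emcn windows, 3 times in Eng, 2 times in Tek and 7 times in Tie1. At least 1 match occurred in 93.4% of 32851 promoter windows of the same length, at least 4 in 33.4% and at least 7 in 3.82%. The letters ACAAT, a core recognised by SOX factors, occurred 2 times in Tek and 1 time in Emcn, against 27.7% of windows with a match and 6.59% with at least 2. The GATA-factor motif AGATAA had no match in the 6 windows and a match in 9.99% of all windows. No motif contains another, though neighbouring matches may share letters. Matches describe the letters only.

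Genes with the most similar pattern over the 9 arrays were found by the root mean square difference of log2 values, each gene centred on its own mean. For Eng these were Gas6 (0.087), Mdfic (0.097) and Pon2 (0.1), against a spread of Eng itself around its mean of 1.74. Gas6, which encodes a ligand of TAM receptor kinases, averaged 6.51 ± 0.073 in dedifferentiated cells, 6.42 ± 0.092 in ES cells and 10.14 ± 0.081 in fibroblasts (SD, n = 3 each). For Emcn, with a spread of 0.7, they were Zhx3 (0.12), Morrbid (0.12) and Sspn (0.13). For Pecam1, with a spread of 1.19, they were Rbm38 (0.12), Rad9b (0.18) and Large2 (0.19). Rbm38, which encodes an RNA-binding protein, averaged 7.89 ± 0.13 in dedifferentiated cells, 7.97 ± 0.058 in ES cells and 5.46 ± 0.41 in fibroblasts. For Cdh5, with a spread of 0.61, the nearest were Nfyc (0.085), Wfdc1 (0.16) and Bclaf1 (0.16). For Flt1 (spread 0.53) they were Pwp2 (0.07), Thoc3 (0.082) and Rrp12 (0.088), and for Tek (spread 0.5) Wdr77 (0.099), Scaf8 (0.13) and Ints6 (0.14). None of these 18 genes belongs to the endothelial lists used here. The 9 genes were left out of the search and the lists hold few of the 19938 genes, so this outcome was likely beforehand.

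Ligands and co-receptors of the same pathways were read from a list of 15 genes of VEGF and angiopoietin signalling. In dedifferentiated cells 7 of the 15 were lower than in fibroblasts and 0 were higher, with a median difference of -0.95. In ES cells 7 were lower and 0 higher, with a median of -0.98. Of all genes, 10.1% were lower and 8.79% higher in dedifferentiated cells, and 10.4% and 8.85% in ES cells. At an unadjusted limma p under 0.05, 2 of the 15 were higher in dedifferentiated and 2 in ES cells, against 26.9% and 27.9% of all genes. Vegfd, a lymphatic growth factor, was at 5.39, 5.39 and 5.16 in dedifferentiated cells, 5.59, 6.07 and 5.97 in ES cells, and 11.71, 11.77 and 11.67 in fibroblasts. It fell by 6.4 log2 units in dedifferentiated cells (95% interval -6.67 to -6.14, limma adjusted p = 5.4e-12). Svep1, a large matrix protein that binds TIE1, fell by 4.56, and in ES cells the co-receptor Nrp1 fell by 4.49. Vegfa, the main ligand of Kdr and named here after its values were seen, averaged 7.89 in dedifferentiated cells, 8.29 in ES cells and 9.76 in fibroblasts, a difference of -1.87 for dedifferentiated cells. The VEGF receptor gene Flt4, expressed in lymphatic vessels and also named after its values were seen, differed by -0.43 in both comparisons with fibroblasts. Between dedifferentiated and ES cells 0 of the 15 were called by limma. At an unadjusted limma p under 0.05, 3 were higher and 3 lower, against 15.8% and 14.7% of all genes. Without dedifferentiated replicate 2, 1 of the 15 was called higher.

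The partners and effectors of endoglin were mostly lower where Eng was lower. Of 19 genes, 12 were lower and 1 higher in dedifferentiated cells than in fibroblasts (median -1.11). In ES cells 13 were lower and 1 higher (median -1.39). The shares of all genes were 10.1% lower and 8.79% higher in dedifferentiated cells, and 10.4% and 8.85% in ES cells. Acvrl1 encodes the endothelial BMP receptor ALK1, to which endoglin presents ligand, and was named after its values were seen. It was at 5.16, 5.3 and 5.17 in dedifferentiated cells, 5.51, 5.5 and 5.37 in ES cells, and 7.95, 8.3 and 8.11 in fibroblasts, a difference of -2.91 for dedifferentiated cells (95% interval -3.12 to -2.69, limma adjusted p = 3.9e-10). The ligand gene Tgfb3 fell by 5.45 and the inhibitory Smad gene Smad6 fell by 3.83 in dedifferentiated cells. In ES cells Id3, a target gene of BMP signalling, fell by 3.68. The one higher gene was the activin receptor Acvr2b, at 1.14 in dedifferentiated and 1.22 in ES cells. Without fibroblast replicate 3 it was at 0.78 and 0.86 and not called, which left 0 higher genes. Bmp10 and Gdf2, the high-affinity ligands of ALK1, were named after their values were seen and differed by -0.089 and 0.0066 between dedifferentiated cells and fibroblasts. Both were dim, with means over the 9 arrays of 3.2 and 3.44, so differences near 0 say little about them. Between dedifferentiated and ES cells 0 of the 19 were called by limma. At an unadjusted limma p under 0.05, 10 were higher and 2 lower, against 15.8% and 14.7% of all genes.

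Junction genes that work beside Cdh5 and Pecam1 went both ways. Of 14, 6 were higher and 3 lower in dedifferentiated cells than in fibroblasts (median 0.71), against 8.79% and 10.1% of all genes. In ES cells 5 were higher and 3 lower (median 0.51), against 8.85% and 10.4%. The members that rose most in dedifferentiated cells were the epithelial cadherin Cdh1, by 5.97, and the junctional adhesion molecule F11r, by 2.81. Both are also epithelial proteins, and in ES cells they rose by 5.81 and 3.2. Cdh2, the cadherin of mesenchymal cells, fell by 4.69 and Jam3 fell by 1.88 in dedifferentiated cells. Esam, an adhesion molecule of endothelial cells and platelets, was at 5.92, 6.02 and 6.24 in dedifferentiated cells, 4.96, 5.03 and 5 in ES cells, and 4.52, 4.5 and 4.2 in fibroblasts. Alone of the list it was called against ES cells too, with a rise of 1.07 log2 units (95% interval 0.83 to 1.3, limma adjusted p = 6.2e-05). Without dedifferentiated replicate 3 that difference was 0.98 and not called, and Esam was not tested where genes below the median level were left out. Cldn5, the claudin of endothelial tight junctions, differed by -0.072 from fibroblasts and by 0.082 from ES cells, and was named after its values were seen.

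Transcription factors used in endothelial cells numbered 21. In dedifferentiated cells 5 were higher and 7 lower than in fibroblasts (median -0.0024), against 8.79% and 10.1% of all genes. In ES cells 2 were higher and 6 lower (median -0.099), against 8.85% and 10.4%. In dedifferentiated cells 4 were higher and 0 lower than in ES cells (median 0.098), against 1.01% and 0.547%. Those 4 were Sox17, Epas1, Etv2 and Sox7. Etv2, an ETS factor that starts the endothelial and blood programme in the embryo, was at 5.74, 6.22 and 5.73 in dedifferentiated cells, 4.36, 4.61 and 4.43 in ES cells, and 4.43, 4.59 and 4.43 in fibroblasts. All dedifferentiated arrays were above the rest, as they were for Cdh5, and Etv2 rose by 1.43 log2 units over ES cells (95% interval 1.14 to 1.71, limma adjusted p = 3.4e-05). Like Cdh5, Etv2 lay below both filters on dim genes, with a highest group mean of 5.9.

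Sox17, a SOX factor of arterial endothelium and of endoderm, rose by 1.79 over ES cells (1.46 to 2.11) and by 2.95 over fibroblasts (2.62 to 3.27). Sox7 of the same family, named after its values were seen, rose by 1.4 (0.99 to 1.81) and by 1.59 (1.18 to 2). Epas1, the hypoxia-inducible factor first found in endothelium, rose by 1.71 over ES cells and by 1.32 over fibroblasts. Klf2, which is also a pluripotency factor, rose by 2.07 over fibroblasts. The 7 factors that fell in dedifferentiated cells were Foxc2 (-3.05), Elk3 (-2.61), Foxc1 (-2.28), Nr2f2 (-2.09), Fli1 (-1.9), Ets1 (-1.43) and Mef2c (-1.1), of which Foxc1, Fli1, Ets1 and Mef2c were named after their values were seen. The 9 factors not called lay between -0.12 (Erg) and 0.42 (Hhex), both also named after their values were seen. Without genes below the median level, 3 factors were lower in dedifferentiated and 3 in ES cells. In ES cells Nr2f2 fell by 2.78, and the rise of Sox17 of 1.16 was 0.99, and not called, without fibroblast replicate 2.

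A further 29 measured genes of endothelial surface and secreted proteins gave 2 higher and 7 lower in dedifferentiated cells than in fibroblasts (median -0.15). The shares of all genes were 8.79% and 10.1%. In ES cells 2 were higher and 10 lower (median -0.21), against 8.85% and 10.4%. In dedifferentiated cells 3 were higher and 0 lower than in ES cells (median 0.013), against 1.01% and 0.547%. Against fibroblasts, Mcam rose by 1.9 in dedifferentiated and 2.74 in ES cells, and Egfl7 by 1.57 and 1.27. In dedifferentiated cells Ecscr fell by 2.86 and the endothelin-converting enzyme gene Ece1 fell by 2.69. Under either filter on dim genes, 4 were lower in dedifferentiated cells. Thbd, which encodes the anticoagulant receptor thrombomodulin, was at 7.61, 7.9 and 7.99 in dedifferentiated cells, 5.3, 5.11 and 5.41 in ES cells, and 8.8, 8.7 and 8.85 in fibroblasts. It stood 2.56 log2 units above ES cells (95% interval 2.32 to 2.81, limma adjusted p = 3.7e-07) and differed by -0.95 (-1.2 to -0.7) from fibroblasts. Procr, the protein C receptor gene, and Cd34, a surface sialomucin named after its values were seen, rose over ES cells by 1.29 and 1.26 and differed from fibroblasts by -0.05 and -0.17. The 3 genes above ES cells were not called higher than in fibroblasts, whereas Cdh5 was. Of 6 measured genes around von Willebrand factor, 1 was higher and 0 lower in each comparison with fibroblasts. It was Rab27a, which encodes a GTPase of secretory granules, at 1.77 in dedifferentiated and 2.18 in ES cells.

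**Figure D3:**
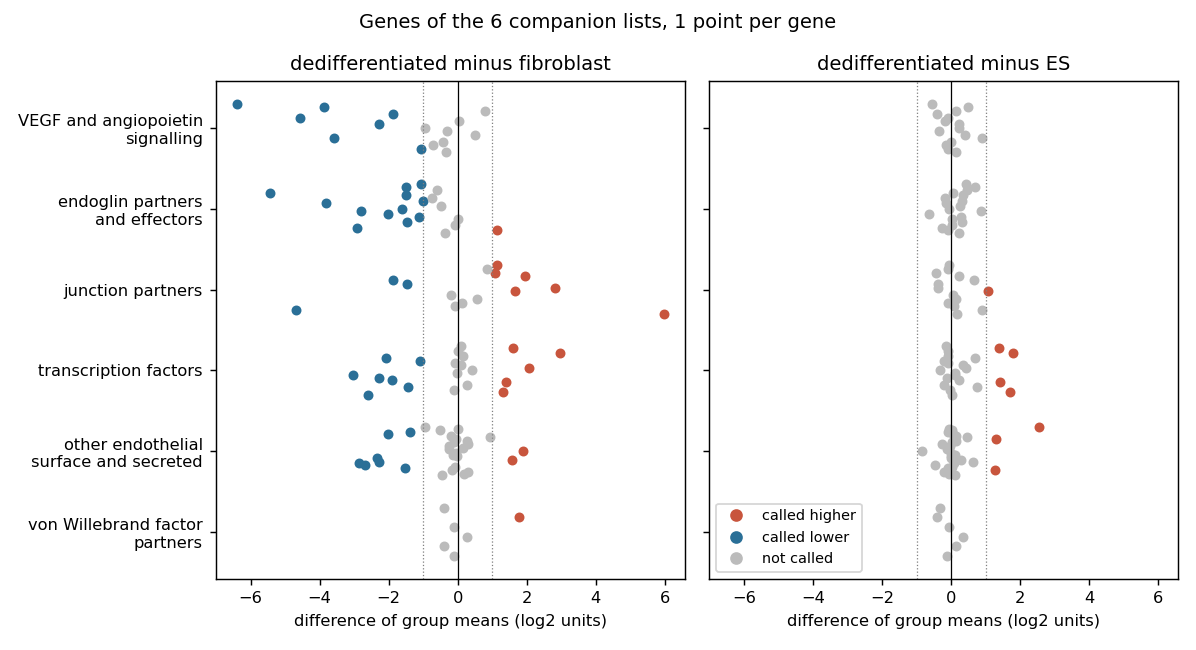
Difference of group means in log2 units (x axis) for each gene of the 6 endothelial pathway lists (y axis), for dedifferentiated cells minus fibroblasts (left) and minus ES cells (right), coloured by call, with dotted lines at 1 log2 unit. Called falls dominate the VEGF and endoglin lists on the left, and the right panel holds only rises among its called genes, 8 in all.

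Markers of other cell types moved between the same groups, and their part in the results above was not tested. The 13 macrophage genes averaged 4.46 to 4.47 in dedifferentiated cells, 4.57 to 4.66 in ES cells and 5.73 to 5.84 in fibroblasts. Of these, 7 were lower and 2 higher in dedifferentiated cells than in fibroblasts, against 10.1% and 8.79% of all genes. Lyz2 fell by 5.65 in dedifferentiated cells. Cd68 rose by 1.75 in ES cells and by 1.05 in dedifferentiated cells. The latter was 0.93, not called, after median centring, which left 0 higher genes of the list. The count of higher genes was 1 without fibroblast replicate 2, fibroblast replicate 3 or dedifferentiated replicate 3. The count of lower genes was 0 without genes below the median level and 3 with a group mean of at least 6 required. Pecam1, which macrophages also carry, was higher in dedifferentiated cells where most of this list was lower. The 7 measured megakaryocyte genes averaged 4.47 to 4.59, 4.5 to 4.61 and 5.04 to 5.14 in the same order of groups, and Pf4, which fell by 2.6 in dedifferentiated cells, was the 1 call. There were 3 calls after median centring and 2 without fibroblast replicate 1, fibroblast replicate 2 or dedifferentiated replicate 2, and 0 under either filter on dim genes, where Pf4 was not tested.

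The 11 mural genes, of pericytes and vascular smooth muscle, averaged 5.65 to 5.74 in dedifferentiated cells, 5.65 to 5.7 in ES cells and 6.89 to 6.94 in fibroblasts. Of these, 4 were lower and 1 higher in dedifferentiated cells than in fibroblasts, against 10.1% and 8.79% of all genes. Pdgfrb fell by 5.66 and Des rose by 1.33, less than its rise of 2.14 in ES cells. The fibroblast list had 12 of 12 lower, the direction of Eng and Emcn. In the mural list, the other 3 that fell were Tagln (-3.76), Acta2 (-3.72) and Cnn1 (-1.47). The 6 mural genes not called lay between -0.71 (Myh11) and 0.74 (Notch3). Notch3, a receptor of pericytes and smooth muscle, rose by 1.49 in ES cells over fibroblasts. Tagln, Acta2, Myh11 and Notch3 were named after their values were seen. Of 11 cardiomyocyte genes 1, Nppb, was higher than in fibroblasts, by 1.65 in dedifferentiated and 1.34 in ES cells. Nppb was not tested under either filter on dim genes. The cardiomyocyte list averaged 4.87 to 4.92 in dedifferentiated cells, 4.79 to 4.89 in ES cells and 4.58 to 4.75 in fibroblasts.

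Between dedifferentiated and ES cells, the primitive endoderm list moved in the direction of Cdh5. It averaged 7.94 to 8.19 in dedifferentiated cells, 6.99 to 7.32 in ES cells and 6.57 to 6.69 in fibroblasts. In dedifferentiated cells 5 of 12 genes were higher than in ES cells and 0 lower (median 0.8), against 1.01% and 0.547% of all genes. Those 5 were Sox17, Gata4, Sox7, Pdgfra and Gata6, with rises of 1.79, 1.63, 1.4, 1.37 and 1.36. Gata4, Sox7 and Gata6 were named after their values were seen. Sox17 and Sox7 stand in both this list and the endothelial transcription factor list, so they do not tell these types apart. Gata4, Gata6 and Pdgfra also averaged higher in fibroblasts (9.16, 8.83 and 10.8) than in ES cells (7.98, 8.04 and 7.59). Pdgfra stands in the fibroblast list too, which had 2 genes higher and 0 lower in dedifferentiated than in ES cells. The mural list had 1 higher, Cnn1, and 0 lower. The 11 measured mesoderm genes averaged 5.47 to 5.54 in dedifferentiated cells, 5.05 to 5.31 in ES cells and 5.24 to 5.39 in fibroblasts, with Etv2 and Runx1 higher than in ES cells by 1.43 and 1.08, a count of 2 that was 1 under either filter on dim genes, which leave out Etv2. The pluripotency list had 1 of 12 genes lower in dedifferentiated than in ES cells, Tfcp2l1 at -1.14.

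**Figure D4:**
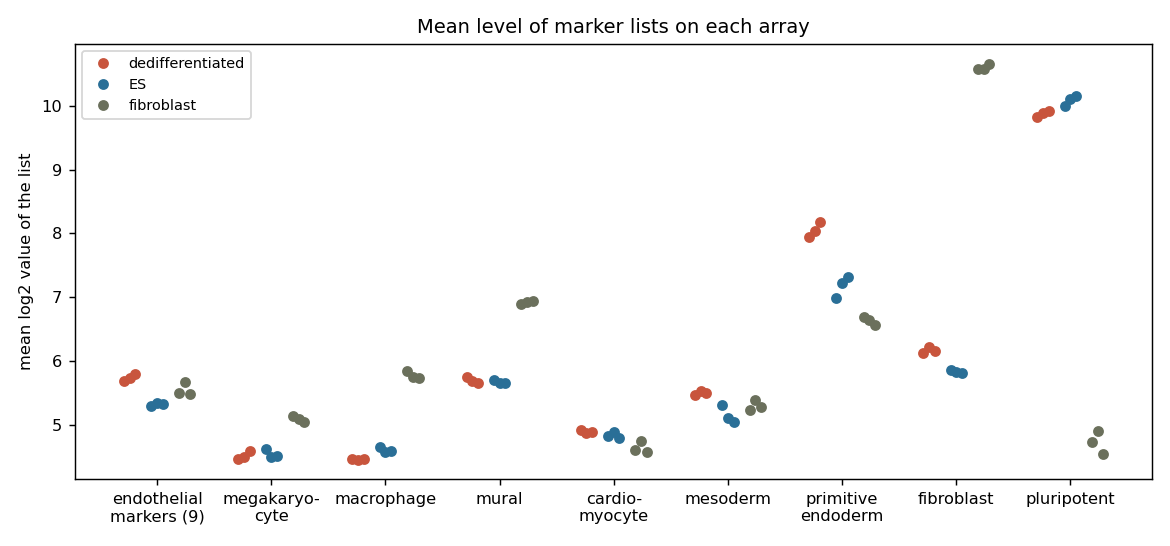
Mean log2 value of the 9 endothelial genes and of 8 marker lists of other cell types (x axis) on each array (points), for the dedifferentiated, ES and fibroblast groups. The 9 endothelial genes average 5.68 to 5.79 in dedifferentiated cells, 5.3 to 5.34 in ES cells and 5.49 to 5.68 in fibroblasts, while the macrophage, mural and fibroblast lists are highest in fibroblasts and the primitive endoderm list is highest in dedifferentiated cells.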

How the data were processed

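RNA of 9 samples was read on 1-colour Affymetrix Mouse Gene ST arrays. The deposited table holds log2 values made with RMA in Affymetrix Expression Console 1.1, per the submitters' processing notes. RMA, as a method, adjusts background, quantile-normalizes arrays and summarises probe sets, which hides any shift shared by most transcripts and compresses differences of dim genes. The annotation and build used upstream are not given in the sources used here.

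Titles gave the groups. For the fibroblasts the source field also names ES cells, and the title was preferred. No array held the values of another. Of the probe sets, 21789 had 1 symbol in the platform annotation, 1621 had several and 12147 were not listed there. For each of 19938 genes the row with the highest mean was used. Symbols were updated through NCBI gene IDs (GRCm38.p6).

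A single limma fit (limma 3.58.1, R 4.3.3) over the 9 arrays was used, with Benjamini-Hochberg adjustment over all genes and a call at adjusted p under 0.05 and 1 log2 unit. Every gene differing by at least 1 log2 unit between dedifferentiated cells and fibroblasts (3765) passed the p threshold. The fit was tested on simulated data. Named genes are the 9 markers, the 2 strongest called rises and the 2 strongest called falls of each pathway list and comparison, 1 of each per marker list and comparison, and the 3 nearest patterns of each called marker (clone and model names left out), unless stated. The 14 lists hold 201 places, of which 193 had a row. Selp, Gp1ba, Gp1bb, Gp6 and T had none. The 9 genes and the lists were chosen with earlier results of these data known.

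Alternatives were other normalizations, filters, row choices, variance models, weights, 2 groups only, a replicate block, leaving out each array, and thresholds.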

Additional observations from a re-analysis of the deposited data

How the results depend on the processing

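Over 22 alternatives, 543 of 564 values of the 9 genes kept their direction and their side of the threshold. Cdh5, Kdr, Tie1, Emcn and Vwf gave no value under either filter on dim genes, and those cases are not among the 564. Tek lost its call against fibroblasts in 2 alternatives. A further 8 values became called, all with no minimum change except Tek against ES cells without ES replicate 3. In addition, 11 values close to 0 turned sign. Those were Tie1 against fibroblasts, -0.13 to 0.0076 in dedifferentiated and -0.11 to 0.082 in ES cells with arrays left out, and 0.094 in ES cells with array weights. Between dedifferentiated and ES cells they were Tie1 (-0.15 to 0.039), Eng (-0.011 to 0.056) and Vwf (-0.076 to 0.00096 with arrays left out, 0.0063 with array weights). Whether same-numbered arrays share more than a number is not stated. Their deviations from the group means correlated at 0.038 to 0.154 between dedifferentiated cells and fibroblasts. The correlations were -0.204 to 0.25 between ES cells and fibroblasts, and -0.166 to 0.055 between dedifferentiated and ES cells. Against fibroblasts, every dedifferentiated array correlated best with its own number, and so did the fibroblast arrays except replicate 3. In no comparison did all arrays of both groups do so, and whether same-numbered arrays were processed together was not tested. The replicate block changed no call and left 4 higher and 2 lower genes of the 9 in dedifferentiated cells against fibroblasts. Either filter on dim genes removed Cdh5, Kdr, Tie1, Emcn and Vwf, which left 1 lower gene in each comparison with fibroblasts and 0 higher between dedifferentiated and ES cells. Leaving out arrays gave 3 to 4 higher and 2 lower genes in dedifferentiated cells, 1 higher and 2 lower in ES cells, and 1 to 2 higher between dedifferentiated and ES cells. With no minimum change, dedifferentiated cells had 6 of the 9 above fibroblasts, ES cells had 3 above fibroblasts, and dedifferentiated cells had 4 above ES cells. Over all genes that setting called 4977 higher and 4468 lower in dedifferentiated cells against fibroblasts, 5203 and 4570 in ES cells, and 2236 and 2003 between dedifferentiated and ES cells. Testing all rows of the table called 3056 higher in dedifferentiated cells, 2900 higher in ES cells, and 443 higher and 190 lower between them. It holds more rows than genes. The arrays carry no detection call, so signal over background sets a limit for the dim genes that could not be measured.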
